A study of Rattus norvegicus with 15 samples.

Results

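Platelet-derived growth factors (PDGFs) and their receptors were followed in testes of LBNF1 rats, a hybrid laboratory rat, with and without irradiation. The members were the probe sets whose only gene symbol in the platform's annotation was Pdgfa, Pdgfb, Pdgfc, Pdgfd, Pdgfra or Pdgfrb. They were 7 of the 31099 probe sets on the array and stood for 5 of the 6 genes: 1 probe set each for Pdgfa, Pdgfc, Pdgfd and Pdgfra, and 3 for Pdgfrb. No probe set carried Pdgfb as its only symbol, so Pdgfb was not analysed here. The control group held 10 samples, which the labels place before irradiation, and the irradiated group held 5 samples from rats given 6 Gy to the lower abdomen. All 15 samples were whole testis from rats aged 25 to 27 weeks, with no transgene named. When the irradiated testes were collected is not stated in these sources. The labels call the samples biological replicates without naming animals, so the p-values speak only of how far these samples scatter, which may be technical.

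PDGFs are secreted dimers that bind receptor tyrosine kinases on neighbouring cells. PDGF-A acts through the alpha receptor (Pdgfra), PDGF-B through both receptors, PDGF-C mainly through the alpha receptor and PDGF-D through the beta receptor (Pdgfrb). In the testis PDGF-A is made largely in the tubules, its receptor lies on interstitial and peritubular cells, and the pair is known for its part in the formation of adult Leydig cells, which make testosterone. Pdgfrb is known from pericytes and other mural cells of vessels.

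The upstream sequences of Pdgfra and Pdgfa are shown because these were the 2 members called higher after irradiation. They are RefSeq sequences of the rat assembly GRCr8, written 5′ to 3′ on the gene's strand, and end just before the annotated gene. Capitals mark a match to the GC box GGGCGG or the E box CANNTG on either strand.

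Pdgfa, chr12:20759116-20759365, plus strand: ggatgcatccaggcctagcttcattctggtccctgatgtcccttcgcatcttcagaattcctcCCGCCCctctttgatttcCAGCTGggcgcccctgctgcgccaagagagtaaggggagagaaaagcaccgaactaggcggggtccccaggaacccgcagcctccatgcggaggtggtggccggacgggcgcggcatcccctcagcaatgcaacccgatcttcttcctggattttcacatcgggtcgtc

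Pdgfra, chr14:33408605-33408766, minus strand: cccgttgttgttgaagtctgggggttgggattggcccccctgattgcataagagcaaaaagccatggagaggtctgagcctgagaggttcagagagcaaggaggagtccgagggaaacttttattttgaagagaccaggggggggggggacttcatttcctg

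The sequence table had an entry for 5 of the 6 genes, with Pdgfrb the gene not matched. The 250 bases before the start held 60.8% G and C in Pdgfa, 63.6% in Pdgfb, 56.0% in Pdgfc, 61.6% in Pdgfd and 47.2% in Pdgfra. Not all of these windows lie upstream of the annotated gene. Of the 250 bases, 250 lay before it in Pdgfa and Pdgfb, 162 in Pdgfra, 77 in Pdgfd and 0 in Pdgfc. The rest lay inside the annotated gene. The median over 33469 promoters was 51.2%. A GC box, a motif bound by Sp1-type factors, matched in the windows of Pdgfa, Pdgfb and Pdgfd and in 30.5% of all promoters. An E box matched in Pdgfa, Pdgfd and Pdgfra and in 65.5% of all promoters. The GC box and E box of Pdgfd, 114 and 138 bases before the start, lie inside its annotated gene. The AP-1 motif TGANTCA matched in Pdgfra alone among the members and in 6.34% of all promoters. Both matches in Pdgfra, 70 and 35 bases before the start, lie in the stretch of its window inside the annotated gene, which is not printed, so its printed sequence has no capitals. The SF1 motif AAGGTCA, the TATA box TATAAA and the Egr1 motif GCGGGGGCG matched in none of the 5 windows and in 3.99%, 12.9% and 2.45% of all promoters. A match is a description of the letters, not of a bound site.

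Values are log2 signals as deposited, 1 per probe set and array, with an unknown zero point. The array medians lay between -1.61 and -1.37 in control and between -1.38 and -1.26 in irradiated arrays. A value below the median of its own array is called dim here and gives only a bound on the level. Levels of different probe sets were not compared. Pearson correlations over the tested probe sets were 0.918 to 0.96 among control arrays, 0.958 to 0.972 among irradiated arrays and 0.219 to 0.277 between the groups. RNA quality was read from actin, as its 3′ minus its 5′ signal: control replicates 6, 7 and 8 were the 3 highest, with 1.89, 1.37 and 1.44 log2 units, and irradiated arrays had 0.903 to 1.16. Without these 3 arrays the same 2 members were called higher and none lower.

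Pdgfra, the alpha receptor, and Pdgfa, the ligand that acts through it, were higher in every irradiated array than in any control array. Pdgfc, another ligand of the alpha receptor, was not called. Pdgfd and the 3 Pdgfrb probe sets were dim in every control array and did not enter the test, which took probe sets at or above the array median in at least 5 of the 15 arrays. Of the 7 member probe sets 3 were tested, and 2 of these were called higher and 0 lower at an adjusted p of 0.05 (limma, Benjamini-Hochberg over 18711 probe sets). The background was high: 83.4% of all tested probe sets were called, 49.0% higher and 34.3% lower, so that a call by itself says little about a member. Of the tested probe sets, 41.3% had every irradiated array above every control array.

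**Figure D1:**
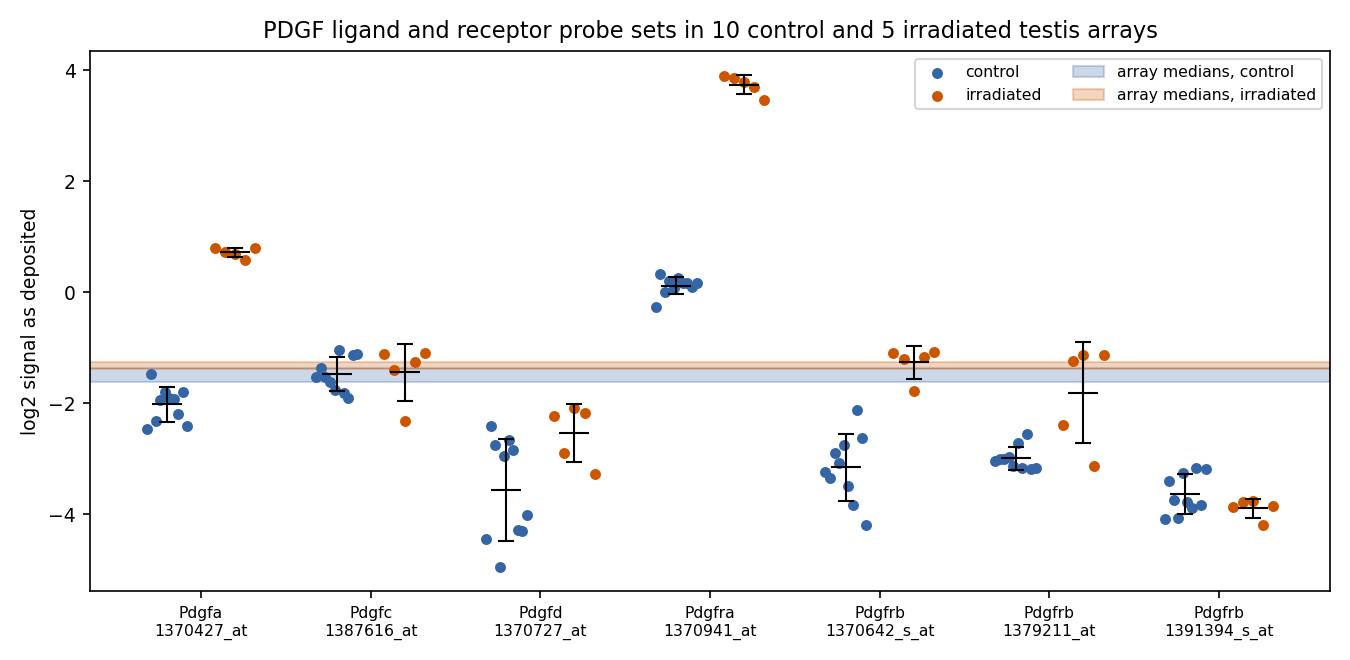
Log2 signal as deposited (vertical axis) of the 7 member probe sets (horizontal axis) in control (blue, n = 10) and irradiated arrays (orange, n = 5). Points are arrays in order of replicate number, bars are the mean and SD, and the shaded bands span the array medians of each group. Pdgfra and Pdgfa show a gap between the groups of 3.15 and 2.05 log2 units, the groups of Pdgfc overlap, and all control points of Pdgfd and Pdgfrb lie below the bands.

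The ligand Pdgfa (probe set 1370427_at) was dim in all 10 control arrays and above the median in all 5 irradiated arrays. Its log2 signal in control testes ranged from -2.46 to -1.47 with a median of -1.94. The irradiated replicates 1 to 5 had 0.79, 0.73, 0.69, 0.58 and 0.79. The irradiated arrays were thus high without exception and lay close together, with an SD of 0.09 against 0.32 in the control arrays. The means were -2.02 in control and 0.72 in irradiated testes, a change of 2.74 ± 0.14 (SE, n = 10 and 5, limma adjusted p = 1.59e-11). Since the control values were dim, only a bound can be given on the fold, and Pdgfa was at least 4.54-fold higher in irradiated testes. Pdgfa passed the filter through its irradiated arrays only, so a probe set of its kind had to differ to be tested at all. The measured change fell to 1.93 and 1.08 when 0.25 or 1 was added on the linear scale.

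Pdgfra (1370941_at), the receptor for that ligand, was above the array median in all 15 arrays. In control testes it ranged from -0.26 to 0.32 with a median of 0.16. The irradiated replicates 1 to 5 had 3.89, 3.86, 3.79, 3.69 and 3.47. The lowest irradiated array lay 3.15 log2 units above the highest control array. The control mean was 0.12 ± 0.16 (SD, n = 10) and the irradiated mean 3.74 ± 0.17 (SD, n = 5). Pdgfra thus rose by 3.62 ± 0.10 (SE, limma adjusted p = 3.92e-15), or 12.3-fold. The 95% interval of the change was 3.41 to 3.83. With 0.25 or 1 added on the linear scale the change was 3.35 or 2.78. Of the 18711 probe sets tested, 443 (2.37%) had a larger measured rise, against 1319 (7.05%) for Pdgfa.

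Pdgfc (1387616_at), a ligand that is secreted in a latent form, lay near the array median in both groups, above it in 5 of 10 control and 3 of 5 irradiated arrays. Control values ranged from -1.90 to -1.04 with a median of -1.52. The irradiated replicates 1 to 5 had -1.11, -1.41, -2.33, -1.25 and -1.10. Replicate 3 was the low one, below every control array, while the other 4 lay within the control range. The measured change was 0.04 ± 0.20 (SE, limma adjusted p = 0.845) with a 95% interval from -0.38 to 0.46. A measured change of more than 0.46 in either direction lies outside that interval. Since part of the values in both groups were dim, the interval sets no limit on the change in level. Without irradiated replicate 3 the change was 0.26, and over all 15 omissions of 1 array the adjusted p lay between 0.136 and 0.984. The sign turned to -0.12 after quantile normalization and to -0.11 after centring arrays on their median.

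The tested members were then compared within each array. There the log2 value of Pdgfra minus that of Pdgfa averaged 2.14 ± 0.24 over the 10 control arrays (SD) and 3.02 ± 0.19 over the 5 irradiated ones (SD). These differ by 0.88 as measured and by 1.44 with every value raised to its array median at least. Since the control values of Pdgfa were dim, its change could have been larger than measured, and whether receptor or ligand changed more was not settled. Pdgfc stood apart from both. The change of Pdgfra exceeded that of Pdgfc by 3.58, and the change of Pdgfa exceeded it by 2.70, with all 5 irradiated arrays outside the control range in each pair (2-sided exact permutation p = 3.33e-04, the smallest these 15 arrays allow, adjusted p = 3.33e-04 over 3 pairs). With low values raised to the array median, these differences were 3.50 and 2.06, and 1 added on the linear scale made them 2.76 and 1.06. Pdgfa entered the comparison only because its irradiated arrays were high, so its p against Pdgfc is no separate support.

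Pdgfd (1370727_at), the ligand of the beta receptor, was dim in all 15 arrays and was not tested. It ranged from -4.95 to -2.42 in control arrays with a median of -3.48, and the irradiated replicates 1 to 5 had -2.24, -2.89, -2.08, -2.17 and -3.27. The groups overlapped, with 3 irradiated arrays above all control arrays, and values this dim give no size of change. With no filter its adjusted p was 0.041 (limma).

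The beta receptor gene Pdgfrb had 3 probe sets, all dim in every control array. In 1370642_s_at the control arrays ranged from -4.19 to -2.12 with a median of -3.16, all dim. The irradiated replicates 1 to 5 had -1.09, -1.20, -1.78, -1.16 and -1.08, of which all but replicate 3 lay above the array median. Every irradiated array was above every control array, as in 29.1% of all probe sets on the array. With 4 arrays at or above the median it missed the filter by 1 array. The means were -3.16 in control and -1.26 in irradiated testes. With the control values raised to their array medians, the irradiated mean gives a bound of at least 1.15-fold higher. This small bound rests on the deposited scale, where array medians were mostly higher in irradiated arrays. Against their own array medians, irradiated replicates 1 to 5 lay at 0.17, 0.14, -0.49, 0.22 and 0.20. With no filter the measured difference of 1.90 ± 0.28 (SE) passed (limma adjusted p = 1.71e-05), where 37.8% of all probe sets were called higher.

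In Pdgfrb 1379211_at the control arrays ranged from -3.19 to -2.56 with a median of -3.03. The irradiated replicates 1 to 5 had -2.40, -1.24, -1.14, -3.14 and -1.14. Replicates 2, 3 and 5 lay above the array median, whereas replicates 1 and 4 were dim and replicate 4 lay within the control range. The third probe set, 1391394_s_at, which the annotation gives the same source accession, was dim in all 15 arrays, with -4.09 to -3.16 in control and -4.20 to -3.76 in irradiated testes. With no filter, the former was called higher (limma adjusted p = 0.00151) and the latter was not called (-0.26, limma adjusted p = 0.198). The measured differences of 1370642_s_at and 1379211_at exceeded that of 1391394_s_at by 2.15 and 1.44 (2-sided exact permutation adjusted p = 9.99e-04 and 0.0015 over 3 pairs). Between 1370642_s_at and 1379211_at the distance of 0.71 did not pass (exact permutation adjusted p = 0.102). Without irradiated replicate 3 it was 1.01 and passed (exact permutation adjusted p = 0.027), so this outcome depends on 1 array. With every value raised to its array median at least, the distances from 1391394_s_at were 0.15 and 0.08 (exact permutation adjusted p = 0.011 and 0.033). Nearly all of these distances thus lie among dim values. The probe sets differed in measured change, but 1391394_s_at was dim in all 15 arrays, so by how much is not known. The 3 probe sets give no size of change for Pdgfrb.

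Whole testis is a mixture of cells, and in such bulk samples fewer cells of a type and less RNA per cell cannot be told apart. Genes of meiotic and later germ cells were far lower in irradiated testes. The mean log2 level of 8 tested spermatocyte markers lay between 2.59 and 2.96 in control arrays and between -3.67 and -3.11 in irradiated arrays, that of 6 round spermatid markers between 2.65 and 2.96 and between -4.17 and -3.30, and that of 10 elongating spermatid markers between 5.13 and 5.70 and between -3.68 and -1.93. All of these genes were called lower. Dim values give only a bound on such a fall. In the same order, the list medians were -6.78, -6.77 and -8.13 as measured, and -3.56, -4.01 and -6.86 with low values raised to the array median. Of 6 tested spermatogonial markers 2 were called higher, 2 lower and 2 were not called, with a median of -0.01 and mean levels of -0.16 to 0.06 and -0.54 to -0.10. Id4, counted as higher, had probe sets called in both directions, from -0.84 to 0.84. Somatic markers moved the other way from those of meiotic and later germ cells. Leydig cell markers were called higher in 14 of 14 tested genes, with a list median of 2.92 and mean levels of -0.50 to 0.00 in control and 2.48 to 2.87 in irradiated arrays. Sertoli cell markers were called higher in 14 of 14, with a median of 2.07 and mean levels of 0.96 to 1.26 and 2.97 to 3.23.

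Peritubular myoid markers were called higher in 10 of 11 tested genes with a median of 1.76 (1.29 with low values raised to the array median), and their mean level went from between -1.02 and -0.61 to between 0.76 and 1.23. Markers of Leydig stem cells and interstitial progenitors, cells known to carry Pdgfra, were called higher in 5 of 7. Their median was 2.30 (2.08 with low values raised). Nr2f2, a nuclear receptor of interstitial progenitors, rose by 4.34 ± 0.16 (SE, 0.90 to 4.34 over its 3 probe sets) and Mme, a membrane peptidase of stromal cells, by at least 2.67, while Thy1 (-0.13) and Lifr (0.22) were not called (limma adjusted p = 0.458 and 0.186). Their mean level went from between -2.15 and -1.48 to between 0.38 and 0.62. Pericyte and mural markers, the class known for Pdgfrb, were called higher in 5 of 8 genes and lower in 1, and 2 were not called, with a median of 0.87 and mean levels of -1.28 to -0.86 and -0.51 to -0.24. Fibroblast markers were called higher in 6 of 8 genes and lower in 2, with a median of 2.96 and mean levels of -0.81 to -0.37 and 1.34 to 1.65. Endothelial markers were called higher in 11 of 13 and lower in 1, with a median of 2.08, or 0.64 with low values raised to the array median, since 5 of the 11 were dim in every control array. Their mean levels were -2.37 to -1.73 and -0.45 to -0.25. Macrophage markers were called higher in 10 of 13 and lower in 2, with a median of 2.86 (2.12 with low values raised) and mean levels of -1.75 to -1.05 and 0.69 to 0.92. Among genes called higher, 2 of 5 progenitor, 3 of 10 myoid and 4 of 10 macrophage markers were also dim in every control array. Such genes, like Pdgfa, entered the test only through their irradiated arrays. Of 3 erythrocyte markers, 2 were called higher and 1 lower, with mean levels of -0.59 to 0.47 and 0.39 to 1.37. Among all 10841 genes tested 47.6% were called higher, and the median change was 0.20. The part of any of these cell types in the change of a PDGF member was not tested.

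Platelets store PDGF, and of their 5 tested markers 1 was called higher, 3 lower and 1 was not called. The mean level of these markers lay between -1.33 and -0.94 in control and between -1.22 and -0.84 in irradiated arrays. The one called higher was Pf4, a platelet chemokine, which rose by at least 2.81.

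**Figure D2:**
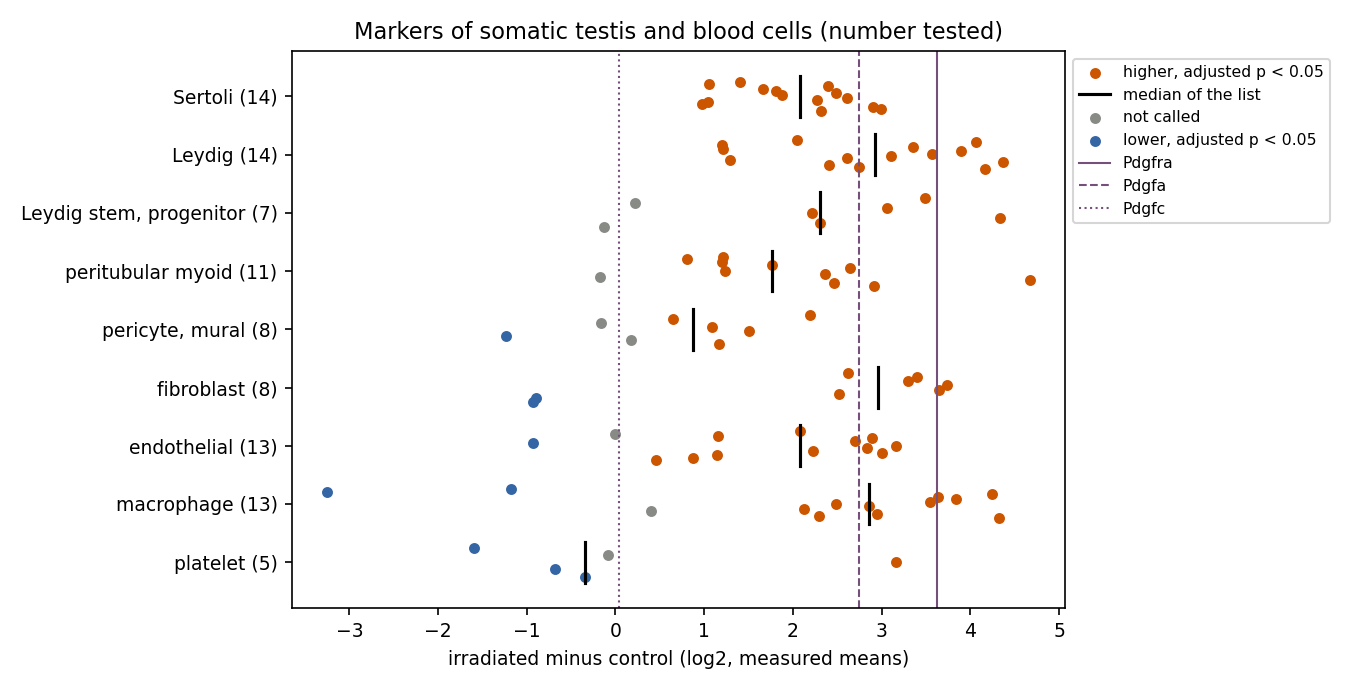
Change of each tested marker gene (horizontal axis, irradiated minus control, log2, measured means) by cell type list (vertical axis, number tested in brackets), with list medians as black bars and the 3 tested members as vertical lines. Pdgfra at 3.62 lies to the right of all 9 list medians shown, and Pdgfa at 2.74 lies between the Sertoli median of 2.07 and the Leydig median of 2.92.

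With arrays centred on somatic markers, the changes of Pdgfra and Pdgfa were smaller than as deposited, and Pdgfc was lower. The mean of the tested Sertoli, peritubular myoid and Leydig markers rose by 1.98, 1.92 and 2.86, and centring the arrays on a list subtracts that amount from every change. After these centrings the change of Pdgfra was 1.64, 1.70 and 0.76, and it passed in each (limma adjusted p = 1.05e-10, 9.33e-11 and 7.91e-05). The change of Pdgfa was 0.76 and 0.82 on the first 2 (limma adjusted p = 2.06e-04 and 7.66e-05) and -0.12 relative to the Leydig list, where it did not pass (limma adjusted p = 0.483). Pdgfc was lower relative to all 3 lists, by -1.94, -1.88 and -2.82 (limma adjusted p = 1.33e-07, 6.27e-08 and 2.16e-10). Of all probe sets called, 58.8% were higher as deposited, and 11.4%, 12% and 3.37% after these centrings.

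**Figure D3:**
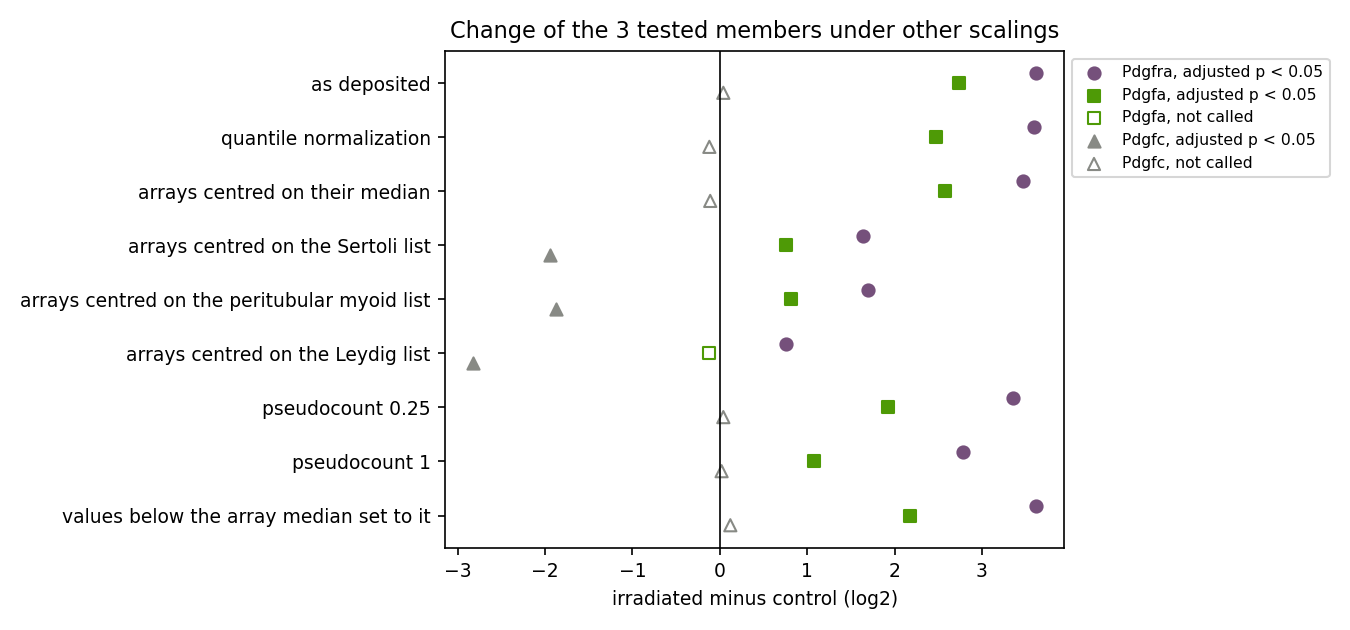
Change of the 3 tested members (horizontal axis, irradiated minus control, log2) under the deposited scale and 8 other scalings or floors (vertical axis). Filled symbols passed an adjusted p of 0.05 and open ones did not. Pdgfra stays right of 0 in all 9 settings, Pdgfa turns to -0.12 when arrays are centred on the Leydig list, and Pdgfc is called lower in the 3 list centrings alone.

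Genes around the receptors were followed in 7 lists of 110 genes, of which 93 were on the array and 77 were tested. Of these, 59 (76.6%) were called higher, 12 (15.6%) lower and 6 were not called, with a median change of 1.46, beside 47.6% and 37.9% of all tested genes and their median of 0.20. Of the 59, 9 were dim in every control array, so that, like Pdgfa, they entered the test through their irradiated arrays. With low values raised to the array median, the median change was 1.15. With arrays centred on the Sertoli, peritubular myoid and Leydig lists the counts turned to 23 higher and 43 lower, 23 and 40, and 10 and 61, so any rise below 1.98, 1.92 or 2.86 is a fall relative to that list.

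Proteases that release or trim the ligands were called higher in 5 of 6 tested genes, with a median change of 0.68. Plat, tissue plasminogen activator, which frees PDGF-C from its latent form, rose by at least 2.71 (adjusted p = 6.49e-11, limma). Furin, the convertase that trims PDGF-A and PDGF-B, rose by 1.68 ± 0.12 (SE). Pcsk7, another convertase, had a change of -0.46 and was not called (limma adjusted p = 0.0578).

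Genes of PDGF-binding proteins and co-receptors were called higher in 6 of 6, with a median of 3.10 (2.78 with low values raised). Nrp1, a co-receptor better known for semaphorins and vascular growth factor, rose by 4.08 ± 0.10 (SE, limma adjusted p = 8.26e-16) and by 4.44 in its other tested probe set. A2m, a plasma protein that traps proteases and growth factors, rose by 2.55 ± 0.08 (SE).

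Genes that dephosphorylate or clear the receptors went both ways, 6 of 10 higher, 3 lower and 1 not called. The adaptor gene Cd2ap and the ubiquitin ligase gene Cblb rose by 2.40 and 1.95, whereas Hgs, which sorts receptors for degradation, and the ubiquitin ligase gene Cbl fell by 1.35 and 1.29. All 4 tested probe sets of Cbl had negative changes, from -1.51 to -0.80. Acp1, a small phosphatase, was not called (0.12, limma adjusted p = 0.265).

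Adaptors and enzymes that dock on the receptors were called higher in 20 of 24 tested genes and lower in 3. Nck2 and Crk, counted as higher, had probe sets called in both directions, from -0.59 to 1.61 and from -0.28 to 2.47. The kinase genes Jak1 and Fyn rose by 2.52 ± 0.10 and 2.25 ± 0.09 (SE). Pik3r3, a regulatory subunit of phosphoinositide 3-kinase, fell by 1.18, and the adaptor gene Crkl by 0.90, with -0.07 in its other probe set. Stat5a was not called (0.08, limma adjusted p = 0.639).

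In the chain from Ras to the MAP kinases and Akt, 5 of 7 tested genes were called higher, 1 was called lower and 1 was not called, with 8 of 16 on the array. Akt1 rose by 2.79 ± 0.11 (SE), although its 3 tested probe sets ranged from -0.09 to 2.79. The kinase gene Map2k1 rose by 1.46 and its relative Map2k2 fell by 0.60. Nras was not called (-0.21, limma adjusted p = 0.304). The probe sets of Pdpk1, counted as higher, were called in both directions, from -1.69 to 1.00.

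Genes that growth factors induce early, with their feedback inhibitors, were called higher in 14 of 19 tested genes and lower in 3. Of the 14, 6 (Myc, Ier2, Ier3, Atf3, Spry1 and Spry2) were dim in every control array and could be tested only because they were high after irradiation. The median change was 2.07 as measured and 0.75 with every value at no less than its array median. Ier3 was dim in every control array and at least 5.64-fold higher, and the AP-1 gene Jun rose by 2.32, with its 3 probe sets from 1.23 to 2.32. Klf5 and Klf4, zinc-finger transcription factors, had measured changes of -3.27 and -0.88. With low values raised to the array median the change of Klf5 was -2.69, so its fall was at least that large. Has2, a hyaluronan synthase, and Spry4, a feedback inhibitor, were not called (0.12 and -0.04, limma adjusted p = 0.328 and 0.783). Srf, counted as higher, had probe sets called in both directions, from -1.39 to 0.64.

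**Figure D4:**
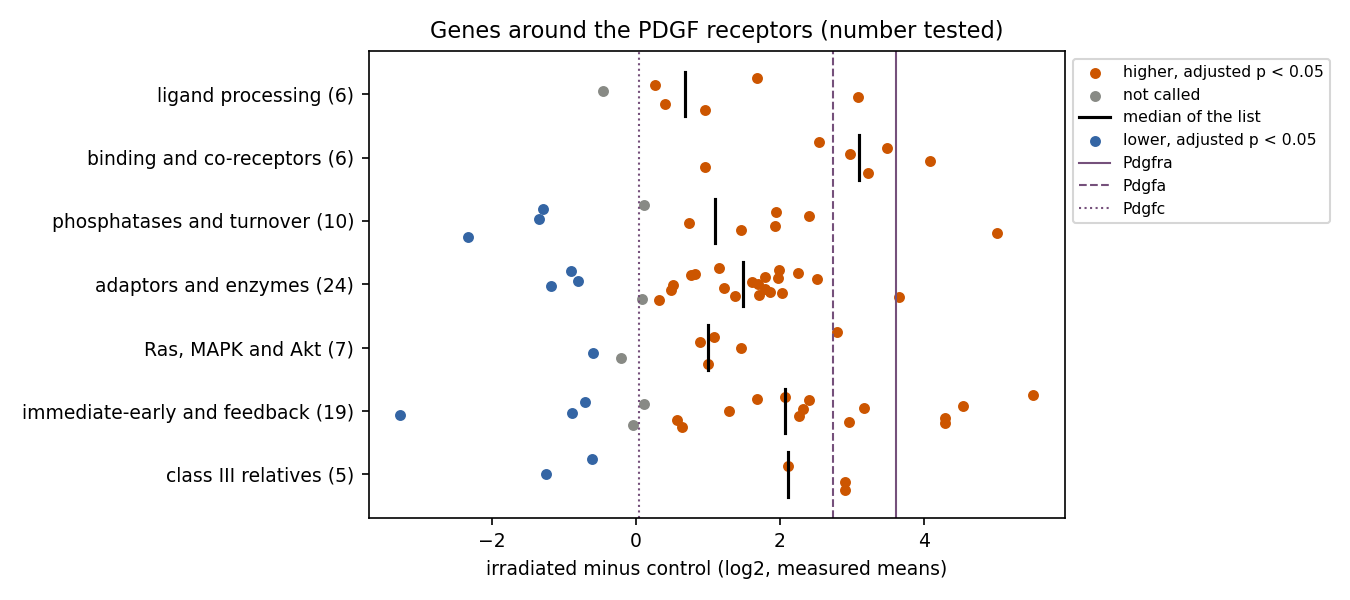
Change of each tested gene (horizontal axis, irradiated minus control, log2, measured means) in the 7 lists around the PDGF receptors (vertical axis, number tested in brackets), with list medians as black bars and the 3 tested members as vertical lines. Most points lie right of 0 on the deposited scale, with 59 called higher and 12 lower, and the counts turn to 23 and 43 when arrays are centred on the Sertoli list.

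The receptors of the same structural class as the PDGF receptors, with their ligands, gave 3 genes higher and 2 lower of 5 tested. The Kit ligand gene Kitlg rose by 2.90 (0.83 in its other probe set) and Csf1r, the receptor of macrophage growth factor, by 2.12. Its ligand genes Il34 and Csf1 were lower, by 1.25 and 0.61 in size, but the 4 tested probe sets of Csf1 were called in both directions, from -0.61 to 3.00.

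Genes whose variation between arrays was most like that of Pdgfra were sought after removal of the group means, over 15 arrays and among 6280 genes that were above the array median throughout. Bod1, which acts in chromosome alignment, had a Pearson correlation of 0.83, the RNase P subunit gene Rpp14 of 0.80 and Smdt1, part of the mitochondrial calcium channel, of 0.79. Their own changes were -1.59, 1.37 and 0.06, so that likeness between arrays of a group went with different changes between groups. These 3 are the highest of many correlations over few arrays and are a description.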

How the data were processed

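The authors deposited log2 signals of 31099 probe sets on every array. MAS5 is the tool the submitters' processing notes name, and version, scaling and zero point are not stated there. The log base was read from spike-ins at 1.5, 5, 25 and 100 pM, which rose by 0.827 to 0.896 per doubling. No value was rescaled, 0 sample columns were unused and 0 pairs of arrays were identical. The number of arrays sets the precision.

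Symbols are those of the platform annotation of 2016, in which 20832 probe sets had 1 symbol, 436 several and 9831 none. The 57 control probe sets were left out. A probe set was tested if 5 or more of the 15 arrays had it at or above their median, which kept 18711 (10841 genes, each by its probe set with the highest mean). Groups came from the titles. The test was that of limma 3.58.1 (R 4.3.3), 2-sided, with no covariate, Benjamini-Hochberg adjustment and a threshold of 0.05. The fit was tested on simulated data. For a dim group the fold is "at least" the brighter mean over the dim group's mean after low values were raised to the array median. Log2 changes given as "at least" set both groups so. Pairs of probe sets were compared by exact permutation over 3003 regroupings. In each pathway list, and in the Leydig progenitor list, the 2 genes with the smallest adjusted p in each direction were named, and those not called where there were 3 or fewer; the progenitor genes and Pf4 were chosen after their values were seen. Alternatives covered scaling, centring, pseudocounts, filters, the variance model, subsets of controls, a replicate block and omission of each array. Members and lists were chosen with earlier results of these data known. Samples with the same replicate number did not deviate together (correlations of -0.05 to 0.07), so numbers were not taken as pairs.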

Additional observations from a re-analysis of the deposited data

Results flagged for a closer look

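Each of the 7 member probe sets was checked in each group for an array far from the others, by the gap to its neighbour over the group's range. Of these 14 checks 4 stood out, where chance gives about 1 in 20. In Pdgfc, irradiated replicate 3 lay at -2.33 while the next lowest irradiated array was at -1.41. The same array was the low one in Pdgfrb 1370642_s_at, at -1.78 with the next at -1.20. In Pdgfrb 1391394_s_at, irradiated replicate 4 lay at -4.20 with the next at -3.88, both dim. In Pdgfra, control replicate 1 lay at -0.26 with the next lowest control array at 0.01, and this array also had the lowest median of all, at -1.61.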

How the results depend on the processing

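As deposited, 2 member probe sets were called higher and 0 lower, and 59 pathway genes higher and 12 lower. These counts turned to 2 and 1, with 23 and 43, under centring on the Sertoli list, to 2 and 1, with 23 and 40, on the peritubular myoid list, and to 1 and 1, with 10 and 61, on the Leydig list, by construction, since each centring subtracts the list's rise. Pdgfa then turned to -0.12 on the Leydig list, and Pdgfc to -1.94, -1.88 and -2.82. Pdgfc, not called as deposited, also had -0.12 after quantile normalization, -0.11 after median centring, -0.04 with control replicates 6 to 10 only and 0.00 without control replicates 6, 7 and 8. With no filter 5 of the 7 member probe sets were called higher, beside 37.8% of all probe sets. Those added were Pdgfd and Pdgfrb 1370642_s_at and 1379211_at, all dim in every control array. With a filter at the 75th percentile 9442 of 10448 probe sets were called, against 15598 of 18711, because fewer were tested, and Pdgfc was not among them. Over the omissions of 1 array, Pdgfra ranged from 3.58 to 3.69, Pdgfa from 2.69 to 2.80 and Pdgfc from -0.04 to 0.26. The difference between Pdgfrb 1370642_s_at and 1379211_at ranged from 0.36 to 1.01 and passed only without irradiated replicate 3. With the replicate number as a block (replicates 1 to 5 of both groups), the changes of Pdgfra and Pdgfa were 3.67 and 2.72 and the calls of members did not change. In the paired exact permutation test, the differences of 0.95, 3.55 and 2.59 between members and of 1.99 and 1.41 between Pdgfrb probe sets could not pass, since 5 pairs allow no p below 0.0625. No gene had 2 tested member probe sets, so the exchange of probe sets gave no value. Setting values below the array median to it, chosen after seeing the data, left the same counts of members called, with Pdgfa at 2.18 and Pdgfra at 3.62.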
